A study of Homo sapiens with 4 samples.

Results

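EGFR, ERBB3 and ERBB4 encode receptor tyrosine kinases of the ERBB family, and EGF, TGFA, AREG, EREG, HBEGF, BTC and NRG1 encode growth factors that bind them. These 10 genes, 3 receptors and 7 ligands, were picked by symbol and found through their NCBI Gene IDs among 18882 gene IDs with an entry in any of 4 RNA-Seq libraries. All 10 had an entry, and 9 had enough reads to be tested. The libraries were 2 of control BT-474 cells, which the labels call wild-type, and 2 of BT-474 NRP-1 cells, in which neuropilin-1, a co-receptor for semaphorins and vascular endothelial growth factor, was expressed from a plasmid. BT-474 is an established human breast cancer cell line of luminal B type with amplification of ERBB2 (HER2). Both kinds of cells were grown in RPMI-1640 with fetal bovine serum, and the plasmid was kept under Geneticin. The study asked which transcripts differ when NRP-1 is overexpressed.

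The BT-474 NRP-1 cells came from stable transfection, isolation of colonies and selection in Geneticin, and the promoter of the plasmid was not given in the sources used here. No library came from cells with an empty plasmid. NRP-1 itself, the transfection, the selection and the choice of colonies therefore cannot be told apart. By real-time PCR the paper reported similar expression in empty-plasmid and wild-type cells for a few genes, none of them among the receptors and ligands studied here. The labels number the control libraries 1 and 2 and the NRP-1 libraries 2 and 3, and nothing states that they came from separate cultures. The p-values therefore measure only the spread between these libraries, which may be technical. The reads counted on genes came to 8243595 to 8448926 per library. NRP1 was counted with 7 reads in control replicate 1 and 8 in control replicate 2, against 103 in NRP-1 replicate 2 and 62 in NRP-1 replicate 3. The fitted log2 fold change of 3.38 had a standard error of 0.42 (adjusted p = 0.044). This call was lost without control replicate 1 (adjusted p = 0.802), without control replicate 2 (0.611), with no filter on low counts (0.106) and with limma (0.121 and 0.112), while the estimate stayed above 0 in each. All 10 markers of a list for luminal and HER2-positive epithelium were detected, with summed levels of 4676 and 4707 FPKM in control and 5722 and 4960 FPKM in NRP-1 libraries. Of 6 fibroblast markers, only COL1A1 and COL3A1 exceeded 3 reads. That list summed to 35.3 and 35.0 FPKM in control and 30.1 and 27.0 FPKM in NRP-1 libraries. Basal or myoepithelial markers summed to at most 4.19 FPKM in any library, and endothelial markers to at most 2.1 FPKM. Of 5 leukocyte markers, CD3E and CD14 were at most at 3 reads in every library. PTPRC, the common leukocyte antigen, had 1.24 and 0.82 FPKM in control and 0.73 and 1.38 FPKM in NRP-1 libraries, and LYZ, lysozyme, 46.4 and 41.6 FPKM in control and 41.4 and 43.9 FPKM in NRP-1 libraries, so the groups overlapped for both. CD68, a lysosomal protein of macrophages, fell with a log2 fold change of -1.67 (adjusted p = 0.0423), and its part in the results below was not tested.

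ERBB receptors sit in the plasma membrane and act in pairs. Binding of a ligand brings receptors together, the kinase domains phosphorylate the tails, and adaptor proteins on the tails carry the signal to the RAS, phosphoinositide 3-kinase and phospholipase C pathways. EGF, TGFA and AREG bind EGFR, while HBEGF, BTC and EREG bind EGFR and ERBB4, and neuregulins such as NRG1 bind ERBB3 and ERBB4. ERBB2 has no known ligand and ERBB3 has a weak kinase, so the pair they form depends on both partners, and it drives growth of breast tumours with ERBB2 amplification.

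None of the 9 tested genes passed the test between BT-474 NRP-1 and control cells. In reads scaled to the library total, EGFR, ERBB3, BTC and EGF were lower in both NRP-1 libraries than in either control library. ERBB4 and EREG were higher in both. For EGFR, ERBB3, ERBB4, EGF and EREG the log2 fold change was smaller in size than the difference between the NRP-1 libraries. It was larger than the difference between the control libraries. For BTC it was smaller than the difference between the control libraries, and the NRP-1 libraries were nearly equal. In TPM, which is FPKM scaled to its sum in a library, the groups overlapped for EGFR, ERBB3 and BTC. On that scale TGFA was higher in both NRP-1 libraries than in either control library. The adjusted p-values of edgeR's quasi-likelihood test ran from 0.31 to 0.999, and 0 of the 9 genes had an unadjusted p under 0.05. Across all 14298 genes tested, 1.09% had an adjusted p under 0.05 and 22.9% an unadjusted p under 0.05. The median log2 fold change of the 9 genes was -0.24, beside 0.02 over all tested genes. With 2 libraries against 2, the smallest two-sided p of an exact permutation test on any gene alone is 0.33.

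A gap between the groups was common in these data. Control and NRP-1 libraries did not overlap in CPM (reads of a gene over the scaled library total) for 4 of the 9 genes with the NRP-1 libraries lower and for 2 with the NRP-1 libraries higher. Over all tested genes 28.3% did not overlap with the NRP-1 libraries lower and 27.9% with the NRP-1 libraries higher. No tested member reached a fitted change of 2-fold, a log2 fold change of 1 in size, which 8.21% of all tested genes did. By DESeq2, 0 of the 9 genes had an adjusted p under 0.05 and 0 had an unadjusted p under 0.05, beside 6.36% of all genes with an adjusted p under 0.05.

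Levels between genes were compared in FPKM, which is corrected for transcript length. ERBB3 had the highest level of the 10 genes and EGFR the next in every library. The 3 receptors together came to 97.6 and 97.9 FPKM in the control libraries, 92.7 FPKM in NRP-1 replicate 2 and 69.4 FPKM in NRP-1 replicate 3. All ligands together came to 21.6 and 19.8 FPKM in control, 16.3 FPKM in NRP-1 replicate 2 and 22.4 FPKM in NRP-1 replicate 3. NRP-1 replicate 3 thus had the lowest sum for the 3 receptors, which leaves out ERBB2. Its ligand sum was only slightly above that of control replicate 1. Below ERBB3 and EGFR, AREG was the most abundant ligand in 3 of the 4 libraries, and TGFA in NRP-1 replicate 2. The ranges of AREG and TGFA overlapped. EREG, BTC and EGF changed places from library to library and did not differ from each other beyond that spread. HBEGF and ERBB4 followed, close to each other in NRP-1 replicate 3, and NRG1 was last.

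**Figure D1:**
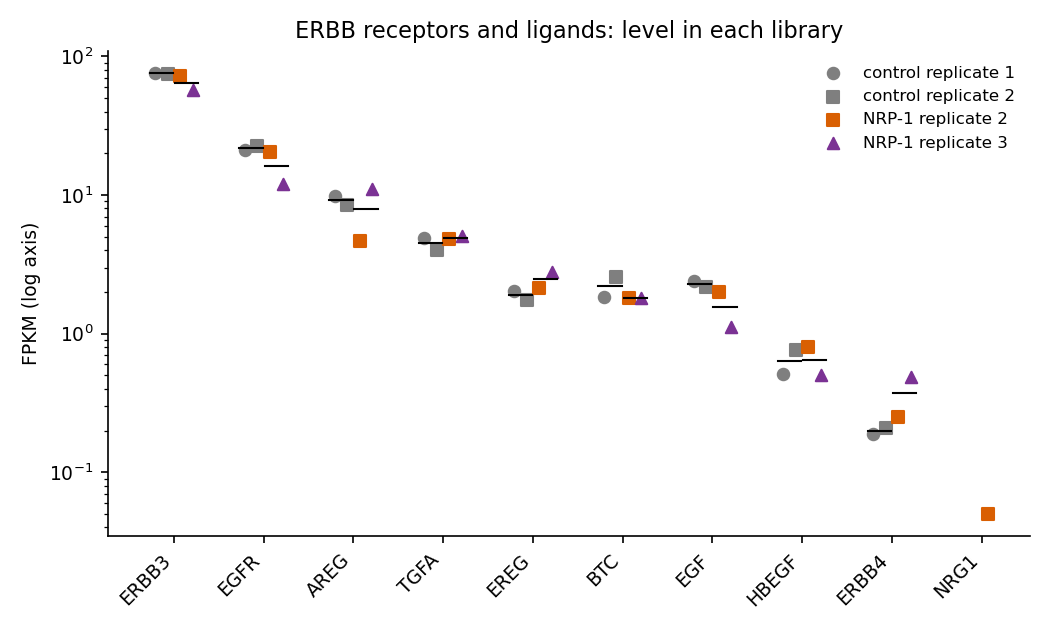
Level of the 10 ERBB receptors and ligands in FPKM on a log axis, 1 point for each library, with a black line at the mean of each group (n = 2). Genes are ordered by their mean over the 4 libraries, and libraries without an NRG1 entry, taken as 0, are not drawn. ERBB3 lies between 56.9 and 76.2 FPKM and ERBB4 at 0.49 FPKM or less, and for EGFR and EGF the lowest point is NRP-1 replicate 3.

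EGFR, the receptor of EGF and TGFA, stood at 21.3 and 22.8 FPKM in the control libraries, 20.5 FPKM in NRP-1 replicate 2 and 12.0 FPKM in NRP-1 replicate 3. NRP-1 replicate 2 was close to the controls, and NRP-1 replicate 3 lay apart from the other 3 libraries. The group means were 22.0 ± 1.06 FPKM (SD, n = 2) in control and 16.3 ± 6.02 FPKM (SD, n = 2) in NRP-1 cells. The log2 fold change was -0.47 with a standard error of 0.25, a 95% interval of -1.08 to 0.14 and an adjusted p of 0.32. The interval reaches from a reduction of just over 2-fold to a slight increase, so a moderate change of EGFR was not detectable with these libraries. EGFR was counted with 575 reads in NRP-1 replicate 3 against 976 in NRP-1 replicate 2, a ratio of 0.588 after scaling (95% exact binomial interval 0.530 to 0.653). The control libraries, with 995 and 1068 reads, gave a ratio of 1.06 (0.972 to 1.16). Such intervals cover counting error only. EGFR-AS1, a transcript antisense to EGFR, had 24 and 36 reads in control and 30 and 16 in NRP-1 libraries. The sources used here do not say that reads were counted by strand, so reads of these overlapping genes cannot be told apart.

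ERBB3, which binds neuregulins and partners with ERBB2, was the most abundant member. It stood at 76.2 and 74.9 FPKM in control, 71.9 FPKM in NRP-1 replicate 2 and 56.9 FPKM in NRP-1 replicate 3. As for EGFR, NRP-1 replicate 3 was lowest and NRP-1 replicate 2 the next. The means were 75.5 ± 0.905 FPKM (SD, n = 2) and 64.4 ± 10.6 FPKM (SD, n = 2), and the estimate on the log2 scale was -0.24 (interval -0.63 to 0.16, standard error 0.16, adjusted p = 0.43). The ratio of ERBB3 to EGFR was 3.58 and 3.29 in control, 3.50 in NRP-1 replicate 2 and 4.74 in NRP-1 replicate 3. In that library EGFR was further below its control level than ERBB3.

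ERBB4, a receptor that binds neuregulins and some EGF-like ligands and is linked to differentiation of the mammary gland, was the least abundant receptor. It had 19 and 21 reads in control, 25 in NRP-1 replicate 2 and 50 in NRP-1 replicate 3, or 0.19, 0.21, 0.25 and 0.49 FPKM in that order. The direction was opposite to that of EGFR and ERBB3, and again NRP-1 replicate 3 lay farthest from the controls. The log2 fold change of 0.84 had a wide interval from -0.23 to 1.92 (standard error 0.44, adjusted p = 0.31). The deposited tables list 2 ERBB4 transcripts, and the transcript length given for the gene was 11941 bases in control replicate 1 and NRP-1 replicate 3 and 11893 bases in the other 2 libraries. The listed lengths, 48 bases apart, therefore differed within each group. With 19 to 50 reads over the whole gene, they cannot show whether use of the transcripts differed. Known ERBB4 isoforms differ by short exons, and which exon the 48 bases hold was not tested.

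ERBB2, the amplified partner of these receptors, was far above them. It stood at 1200 and 1299 FPKM in control and at 1509 and 1196 FPKM in NRP-1 replicates 2 and 3, so the groups overlapped (log2 fold change 0.08, standard error 0.17, adjusted p = 0.822). The ratio of ERBB2 to ERBB3 was 15.8 and 17.3 in control and 21.0 in both NRP-1 libraries. The length given for ERBB3 was 5389 bases in NRP-1 replicate 2 and 5172 to 5185 bases in the other libraries. The equal value in the NRP-1 libraries depends on these lengths. ERBB2 exceeded EGFR by 56.4-fold and 57.1-fold in control, 73.6-fold in NRP-1 replicate 2 and 99.7-fold in NRP-1 replicate 3. These ratios are given as levels with no test.

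AREG, a ligand of EGFR that responds to oestrogen in the breast, had the largest gap between the NRP-1 libraries among the members. It stood at 9.86 and 8.54 FPKM in control, 4.66 FPKM in NRP-1 replicate 2 and 11.1 FPKM in NRP-1 replicate 3. The NRP-1 libraries lay on either side of the controls, so that the group means of 9.20 ± 0.933 and 7.90 ± 4.58 FPKM (SD, n = 2 each) overlapped. The log2 fold change was -0.25 (standard error 0.41, interval -1.27 to 0.76, adjusted p = 0.758). NRP-1 replicate 3 held 118 AREG reads and NRP-1 replicate 2 held 49, a scaled ratio of 2.40 (1.71 to 3.43), while the control libraries held 102 and 89 reads with a ratio of 0.862 (0.641 to 1.16).

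EREG is the ligand gene next to AREG on chromosome 4. RefSeq places EPGN, EREG, AREG and BTC in that order among the protein-coding genes, all encoding EGFR ligands. EREG had 2.03 and 1.75 FPKM in control, 2.15 FPKM in NRP-1 replicate 2 and 2.79 FPKM in NRP-1 replicate 3. Both NRP-1 libraries were slightly above the controls, with means of 2.47 ± 0.453 and 1.89 ± 0.198 FPKM (SD, n = 2 each). The log2 fold change of EREG was 0.35 (standard error 0.25, interval -0.25 to 0.95, adjusted p = 0.446). The ratio of AREG to EREG was 4.86 and 4.88 in control, 2.17 in NRP-1 replicate 2 and 3.99 in NRP-1 replicate 3. Control libraries gave nearly equal ratios, and NRP-1 replicate 2, where AREG was at its lowest and EREG just above its control values, gave the lowest. The difference between the genes was not tested.

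The 250 bases before the start site of AREG, EREG and EGFR are shown because AREG and EREG are neighbouring ligand genes and EGFR is the receptor they bind. The sequences are from RefSeq on GRCh38.p14, 5′ to 3′ on the + strand, which is the coding strand of all 3 genes, at chr4:74444886-74445135 for AREG, chr4:74364895-74365144 for EREG and chr7:55018767-55019016 for EGFR. Capitals mark every match, on either strand, to 3 motifs: the TATA box TATAAA, the cAMP response element TGACGTCA and the GC box GGGCGG, read as CCGCCC on the other strand.
AREG: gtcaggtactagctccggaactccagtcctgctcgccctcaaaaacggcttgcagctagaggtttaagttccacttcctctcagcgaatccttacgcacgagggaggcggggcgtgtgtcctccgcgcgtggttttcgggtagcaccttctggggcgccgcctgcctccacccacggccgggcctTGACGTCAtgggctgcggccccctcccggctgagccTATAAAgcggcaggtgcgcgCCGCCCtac
EREG: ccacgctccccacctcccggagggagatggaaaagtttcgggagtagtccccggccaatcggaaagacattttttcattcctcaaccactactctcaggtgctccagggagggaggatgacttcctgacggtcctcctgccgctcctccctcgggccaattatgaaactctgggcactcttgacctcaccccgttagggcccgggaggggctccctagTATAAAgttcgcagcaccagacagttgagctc
EGFR: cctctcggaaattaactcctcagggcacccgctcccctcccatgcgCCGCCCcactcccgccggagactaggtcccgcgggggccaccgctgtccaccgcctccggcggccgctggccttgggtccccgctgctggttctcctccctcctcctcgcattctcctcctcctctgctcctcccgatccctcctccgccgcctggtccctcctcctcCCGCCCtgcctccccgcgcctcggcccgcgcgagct
Windows that end at the RefSeq start of the gene were used for 8 of the 10 members. AREG and EREG each held a TATA box, 29 and 32 bases before the start, a motif found in 10.7% of 35116 windows of this length. AREG also held a cAMP response element 65 bases before the start, which 1.65% of windows held, and EREG and EGFR held none. AREG held 1 GC box, 9 bases before the start, and EREG held none, with GC contents of 65.2% and 58%. EGFR had no TATA box, 2 GC boxes and a GC content of 73.6%, beside a median of 58% over all windows and 42.6% of windows with a GC box. Of the other members with a window, HBEGF held 5 GC boxes, TGFA 3 and ERBB4 1, and BTC and EGF held none of the 3 motifs. No window was found for ERBB3, and NRG1 was not looked up. A match is a run of letters and does not show that a factor binds there.

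TGFA is the EGFR ligand with the most reads over the 4 libraries. It stood at 4.92 and 4.03 FPKM in control, 4.79 FPKM in NRP-1 replicate 2 and 5.03 FPKM in NRP-1 replicate 3. In FPKM the groups overlapped, while in TPM both NRP-1 libraries were above both controls. The log2 fold change was 0.10 with a standard error of 0.19 and an interval of -0.37 to 0.56 (adjusted p = 0.801). TGFA made up 22.8% and 20.3% of the summed ligand level in control, 29.4% in NRP-1 replicate 2 and 22.5% in NRP-1 replicate 3, where AREG made up 45.7%, 43.0%, 28.6% and 49.8% in the same order.

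EGF, whose precursor is a long membrane protein, had the most negative fold change of the members. It stood at 2.39 and 2.18 FPKM in control, 2.01 FPKM in NRP-1 replicate 2 and 1.11 FPKM in NRP-1 replicate 3, as means 2.29 ± 0.148 and 1.56 ± 0.636 FPKM (SD, n = 2 each). As for EGFR, NRP-1 replicate 3 lay apart from the other libraries and replicate 2 was near the controls. The log2 fold change was -0.61 (standard error 0.32, interval -1.38 to 0.17, adjusted p = 0.313). EGF gave 4.96% of the summed ligand level in NRP-1 replicate 3, beside 11.1% and 11.0% in control and 12.3% in NRP-1 replicate 2.

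BTC and HBEGF, ligands of EGFR and ERBB4, rested on few reads. BTC had 20 and 28 reads in control and 20 in each NRP-1 library (log2 fold change -0.32, standard error 0.37, interval -1.23 to 0.59, adjusted p = 0.652). Control replicate 1 and the NRP-1 libraries were nearly equal for BTC, and control replicate 2 was higher. HBEGF had 10 and 15 reads in control and 16 and 10 in NRP-1 replicates 2 and 3, so that the groups overlapped, and a log2 fold change of -0.0016 (standard error 0.48, interval -1.19 to 1.18, adjusted p = 0.999). At this depth a 2-fold change in either direction lay within the interval of HBEGF, and a 2-fold reduction within that of BTC. NRG1, the neuregulin that binds ERBB3 and ERBB4, had 1 read in NRP-1 replicate 2 and 0 in the other libraries, at or under the floor of 3 reads, and was not tested. The tables list 17 NRG1 transcripts, more than for any other member.

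**Figure D2:**
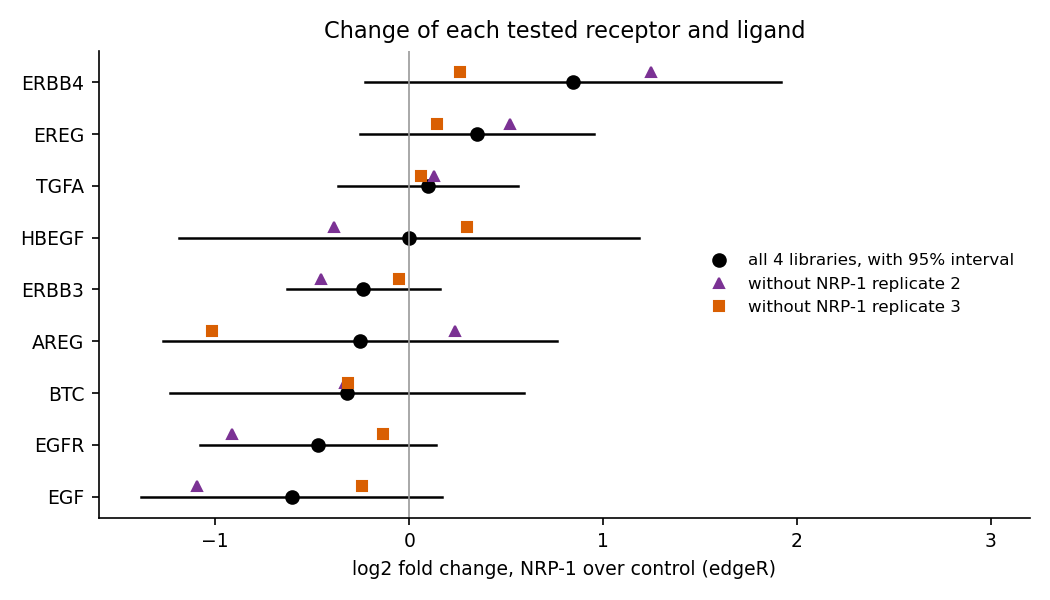
Log2 fold change of NRP-1 over control cells from edgeR for the 9 tested receptors and ligands. Black points with lines give the estimate and 95% interval from all 4 libraries, and coloured symbols give the estimate without NRP-1 replicate 2 or without NRP-1 replicate 3, with no interval drawn. All 9 intervals cross 0, and for AREG the estimate moves from -1.02 to 0.24 with the library left out.

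The members' estimates depended on which NRP-1 library was used. In a fit with control cells and NRP-1 replicate 3 alone, 4 of the 9 genes had an adjusted p under 0.05. These were EGFR (log2 fold change -0.91, adjusted p = 7.58e-15), ERBB3 (-0.45, adjusted p = 4.27e-05), EGF (-1.10, adjusted p = 0.000682) and ERBB4 (1.25, adjusted p = 0.0141). In a fit with NRP-1 replicate 2 alone, only AREG of the 9 genes did (-1.02, adjusted p = 0.00374), and EGFR, ERBB3, EGF and ERBB4 were at -0.14, -0.05, -0.25 and 0.26. With NRP-1 replicate 3 alone AREG was at 0.24, on the other side of 0. Such fits take their spread from the control libraries alone and assume that the lone NRP-1 library varies like them. They called 36.8% of all tested genes with NRP-1 replicate 3 and 28.2% with NRP-1 replicate 2, and the 4 and 1 of 9 members called, read against these shares, are not a result about the members. Without control replicate 1 or without control replicate 2, edgeR called 0 of all genes.

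The NRP-1 libraries were also compared with each other. From NRP-1 replicate 2 to NRP-1 replicate 3, log2 CPM differed by 1.23 for AREG, 0.94 for ERBB4, -0.82 for EGF, -0.76 for EGFR and -0.39 for ERBB3. In the control libraries the same genes differed by -0.21, 0.12, -0.15, 0.08 and -0.03. For these 5 of the 9 genes the counting interval of the ratio between the NRP-1 libraries did not hold 1, and for 0 of the 9 in the control pair. The shares over all tested genes were 48.8% for the NRP-1 pair and 19.5% for the control pair. Differences between the NRP-1 libraries beyond counting error were therefore general, and the members' 5 of 9 is close to that share. The median absolute difference was 0.59 for the 9 members and 0.26 for 11529 genes averaging 50 reads or more in the NRP-1 pair, and 0.21 and 0.12 in the control pair, with members of few reads included. NRP1 itself was lower in NRP-1 replicate 3 than in NRP-1 replicate 2, with a scaled ratio of 0.601 (0.431 to 0.832), and whether the members' differences go with its level was not tested.

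**Figure D3:**
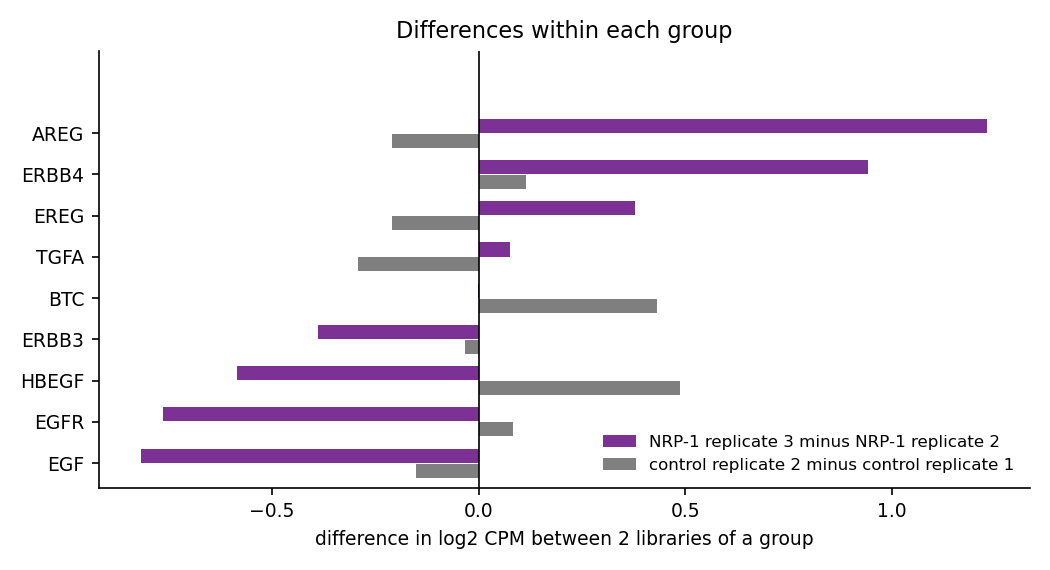
Difference in log2 CPM between the NRP-1 libraries (replicate 3 minus replicate 2, purple bars) and between the control libraries (replicate 2 minus replicate 1, grey bars) for the 9 tested members. AREG and ERBB4 are higher and EGF and EGFR lower in NRP-1 replicate 3 by more than 0.7, while no control bar exceeds 0.5, and the NRP-1 bar of BTC is too short to see.

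By the distance of log2 CPM over the 4 libraries, centred on each gene's mean, the 3 genes most like EGFR among 11523 were MAGED2 at 0.03, NMRK1 at 0.05 and YPEL5 at 0.07. MAGED2, for example, had 6695 and 6971 reads in control, 6466 in NRP-1 replicate 2 and 3845 in NRP-1 replicate 3, the same low value in the last library. The genes most like ERBB3 were CHN2 at 0.02 and APOLD1 at 0.03, beside an ID with no symbol, and those most like TGFA were LACTB, ZUP1 and C7orf25, at 0.02 to 0.04. With 4 points, close patterns are easy to find among many genes.

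Other genes of the ERBB pathway were taken from 4 lists with 43 genes, of which 38 were tested. None of the 38 passed an adjusted p of 0.05 by edgeR, 11 had an unadjusted p under 0.05, and no adjusted p was under 0.068. By DESeq2, 2 of them had an adjusted p under 0.05, ADAM15 lower and CBL higher. Over all genes tested, 22.9% had an unadjusted p under 0.05 by edgeR and 6.36% an adjusted p under 0.05 by DESeq2, so these counts, and those of each list below, lie near the shares of all genes and are no result about the lists. The median log2 fold change of the 38 genes was 0.05, with 22 estimates above 0 and 16 below. Among the other receptor and ligands, 3 of 5 were tested and 0 had an unadjusted p under 0.05. EPGN, a ligand of EGFR, had 29.9 and 51.3 reads in control and 64.8 and 52.1 reads in NRP-1 replicates 2 and 3, and the groups overlapped (log2 fold change 0.47, adjusted p = 0.462).

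Of 10 genes for shedding and trafficking of the ligands, 9 were tested and 3 had an unadjusted p under 0.05. ADAM15, a membrane metalloprotease, had 2978 and 2996 reads in control and 1791 and 2161 in NRP-1 replicates 2 and 3 (log2 fold change -0.66, standard error 0.14, adjusted p = 0.0748). Its NRP-1 libraries were both well under the controls, unlike those of EGFR or AREG. FRMD8, which stabilises the complex of the protease ADAM17 with its iRhom partners, was at -0.36 (standard error 0.12, adjusted p = 0.158). ADAM17 itself, the main protease for AREG, TGFA and HBEGF precursors, was at -0.29 with an adjusted p of 0.258. The median of this list was -0.12.

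Among 12 adaptors and effectors, 11 were tested and 3 had an unadjusted p under 0.05, with a median of 0.21. PLCG1, a phospholipase that docks on EGFR, had 405 and 418 reads in control and 610 and 721 in NRP-1 libraries (log2 fold change 0.63, standard error 0.14, adjusted p = 0.0797). GAB2, a docking protein that links receptors to phosphoinositide 3-kinase, had 187 and 185 reads in control and 129 and 92 in NRP-1 libraries (log2 fold change -0.81, standard error 0.22, adjusted p = 0.114). The estimates of these effectors had opposite signs. The NRP-1 libraries of GAB2 differed by -0.48 in log2 CPM, beside -0.03 in the control pair.

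Of 16 inhibitors and genes of receptor turnover, 15 were tested and 5 had an unadjusted p under 0.05, with a median of 0.06. CBL, a ubiquitin ligase that sends activated EGFR to lysosomes, had 197 and 218 reads in control and 355 and 414 in NRP-1 replicates 2 and 3. Its log2 fold change of 0.83 (standard error 0.16) had an adjusted p of 0.068, the lowest of the 38 pathway genes. ERRFI1, an inhibitor that binds the EGFR kinase domain, had 218 and 190 reads in control and 154 and 107 in NRP-1 libraries (log2 fold change -0.70, standard error 0.24, adjusted p = 0.158). RNF41, a ubiquitin ligase of ERBB3, was at -0.52 with an adjusted p of 0.0821. With NRP-1 replicate 3 alone 20 of the pathway genes had an adjusted p under 0.05 and with NRP-1 replicate 2 alone 14, in fits that called 36.8% and 28.2% of all tested genes.

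**Figure D4:**
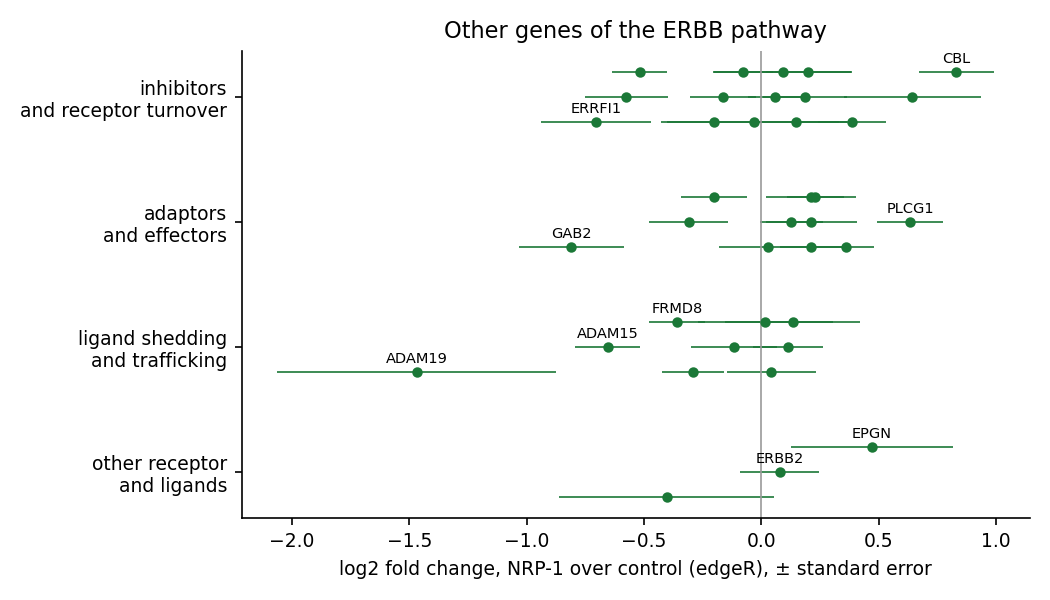
Log2 fold change of NRP-1 over control cells for the 38 tested pathway genes, 1 point for each gene with its standard error, in 4 lists. CBL lies at 0.83 and GAB2 at -0.81, and the point farthest from 0, ADAM19 at -1.47, had at most 16 reads in any library.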

How the data were processed

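RNA of 2 control and 2 NRP-1 libraries was measured by RNA-Seq. The paper and the series text name different Illumina HiSeq models. Per the submitters' processing notes, the authors used bcl2fastq 2.16, Bowtie2 2.2.5, HISAT2 2.0.1 and RSEM, with GRCh38 and hg19 both named. The authors deposited an expected count per gene, not normalized, of which 32.4% to 32.9% were not whole in a library. The deposited FPKM values are normalized by the authors for transcript length and mapped reads, and a gene without an entry in a library was taken as 0. A further deposited table with fold changes of the authors' own comparison was not used. Of the gene IDs, 99.4% matched a symbol in RefSeq.

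Expected counts were rounded and fitted over all genes with edgeR 4.0.16 in R 4.3.3 (TMM, factors 0.986 to 1.014, filterByExpr, glmQLFit, glmQLFTest, group only), with Benjamini-Hochberg adjustment over 14298 genes, two-sided. A standard error is the log2 fold change over the square root of F. Alternatives were DESeq2 1.42.0, no TMM, no filter, each library left out, and limma 3.58.1 at a mean FPKM of at least 0.5 after adding 1 or 0.1 and taking log2. The fits were run on simulated counts with the same spread in all libraries and changes larger than any member's. That run does not show how well they detect changes in these data. Members and gene lists were chosen with earlier results of these data known. The pathway genes named were ERBB2, any past an adjusted p of 0.05 and the 2 largest changes per list with a mean of at least 20 reads. ADAM17, RNF41, ADAM19, CD68, PTPRC, LYZ and EGFR-AS1 were added after their values were seen.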

Additional observations from a re-analysis of the deposited data

How the results depend on the processing

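Over 43 comparisons of a member's log2 fold change with an alternative, libraries left out not counted, 38 kept both their sign and their call, and 5 changed sign, all of HBEGF, whose estimate near 0 became 0.032 without TMM, 0.00037 with DESeq2, 0.00017 with no filter, and 0.011 and 0.021 with limma at pseudocounts of 1 and 0.1. With each library left out, 0 to 4 members were called, 0 to 2 had a log2 fold change of at least 1 in size, and 0 to 20 pathway genes were called. In these fits HBEGF ranged from -0.39 to 0.31, TGFA from -0.043 to 0.25 and AREG from -1.02 to 0.24. DESeq2 and the fit with no filter each gave 1 member with a log2 fold change of at least 1, which was NRG1 with its 1 read, and DESeq2 called 2 pathway genes. Without TMM, with no filter and with limma, 0 pathway genes were called. No member had an adjusted p under 0.05 without TMM, with no filter or with limma, and 0 had an unadjusted p under 0.05. Of all genes, no filter left 0 calls, limma 7 and 3, and no TMM 154. NRP1 lost its call with no filter (3.38, adjusted p = 0.106), with limma (1.28, adjusted p = 0.121 at a pseudocount of 1 and 2.87, adjusted p = 0.112 at 0.1) and without control replicate 1 (adjusted p = 0.802) or control replicate 2 (adjusted p = 0.611), with 2.96 to 3.70 over the libraries left out. The cause was not tested. TPM in place of FPKM raised the log2 ratio of NRP-1 over control by 0.10, going by the mean summed FPKM of each group. The ratio of group means changed direction for no tested member. In TPM, however, the groups overlapped for EGFR, ERBB3 and BTC, while EGF, ERBB4 and EREG kept their gap. TGFA gained a gap, at 10.5 and 8.82 TPM in control and 11.3 and 11.5 TPM in NRP-1 replicates 2 and 3. ERBB3 stood at 162 and 164 TPM in control, 170 TPM in NRP-1 replicate 2 and 130 TPM in NRP-1 replicate 3. ERBB4 fell under the FPKM filter and has no limma value.

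No paired analysis was made, because the labels state no pairing and the groups share only replicate number 2. The paper lists its upregulated genes with a fold change for each of 2 replicates. Depth limits ERBB4, BTC and HBEGF, at 50 reads or less, and NRG1, at 1.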
